A study of Homo sapiens with 21 samples.

Results

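The untreated baseline of HepG2 cells consisted of 3 libraries, chosen by their labels as the 24 h cultures without caffeine, out of 21 libraries in the series. HepG2 is an established human liver tumour line, long described as a hepatocellular carcinoma and later attributed to a hepatoblastoma, so every level given here describes 1 line and not a panel of liver cells. The study exposed this line for 24 h to caffeine at 0.01, 0.1, 1, 10, 100 or 1000 µM or to none, with 3 cultures in each of 7 groups. All cultures, the untreated ones included, had their serum-containing DMEM replaced by serum-free DMEM for these 24 h, so no group shows the line with serum. Messenger RNA was enriched on poly(dT) beads and read counts per gene were tabulated. The labels name the cultures only as triplicates, so the spread given below is the spread between these samples, which may be partly technical.

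Hepatocytes make most of the proteins of blood plasma, among them albumin, transport proteins, apolipoproteins, clotting factors and complement. Their genes are driven together by a small set of transcription factors, of which HNF4A, the FOXA factors and CEBPA are the best known. The fetal liver uses alpha-fetoprotein and a set of growth and glycolytic genes that the adult liver largely replaces with cytochrome P450 enzymes, the urea cycle and glucose production, and liver carcinomas often return to the fetal set.

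The 3 untreated libraries held 32759535, 39571761 and 27867586 counts, within a range of 23502519 to 44815552 over all 21. Levels are counts per 1000000 counts (CPM) after scaling of library totals by the TMM method, values in a series of 3 are those of replicates 1, 2 and 3, and the figure after ± is the SD over the 3 libraries (n = 3). Where genes are compared with each other, a per-length level is used, the count per kilobase of merged exons scaled to a total of 1000000. A mean under 0.1 CPM is called silent here. A count of 0 allows a level of up to 0.0916, 0.0779 and 0.115 CPM in the 3 libraries, a limit set at 3 counts, and this limit and all counting intervals cover counting error only.

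Replicate 3 stood apart from the other untreated libraries. Among 11011 features with a mean of at least 5 CPM, it was the library farthest from the median of the 3 for 68.0%, against 14.7% for replicate 1 and 17.3% for replicate 2. The SD of the log2 difference was 0.18 between replicates 1 and 2, 0.34 between 1 and 3 and 0.32 between 2 and 3. The difference followed the GC content of the transcripts. From the fifth of genes with the lowest GC content to the fifth with the highest, the median log2 difference of replicate 3 from the mean of the others was 0.27, 0.19, 0.03, -0.22 and -0.38, while replicate 1 minus replicate 2 stayed between -0.03 and 0.04. Across 10745 genes, which are not independent replicates and share the same libraries, Pearson's r with GC content was -0.76 for the first difference and -0.12 for the second. The mitochondrial share of counts was 10.8%, 12.3% and 14.2%, and its part in the difference was not tested. For some members the mean over replicates 1 and 2 is given as well.

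**Figure D1:**
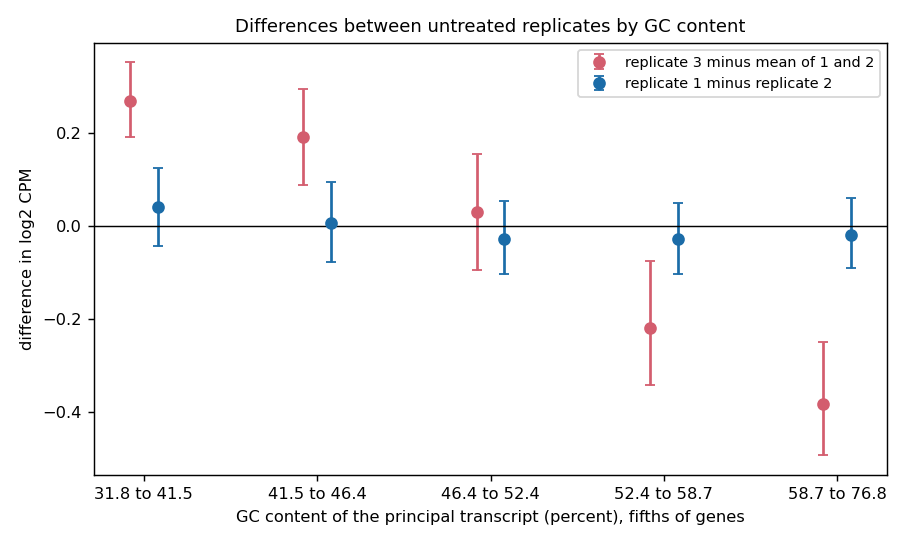
Difference in log2 CPM between untreated replicates, for 5 equal sets of genes ordered by the GC content (percent) of the principal transcript. Points are medians and bars run from the 25th to the 75th percentile of genes; replicate 3 minus the mean of replicates 1 and 2 falls from 0.27 to -0.38, while replicate 1 minus replicate 2 lies near 0 in each set.

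All 4 genes taken as hepatocyte markers had at least 10 CPM, while several other hepatocyte genes given below, such as GC, ARG1 and SLC10A1, were silent. ALB, the gene of serum albumin, lies on chromosome 4 (GRCh38, 73397114 to 73421412, plus strand, GENCODE 29) and measured 10443, 11612 and 15334 CPM. Replicate 3 was the highest and the mean was 12463 ± 2554, or 11027 over replicates 1 and 2. AFP, its fetal neighbour on the same chromosome (73431138 to 73456174, plus strand), measured 4808, 4962 and 6317 CPM with a mean of 5362 ± 831, again highest in replicate 3, or 4885 over replicates 1 and 2. APOA1, the main protein of high-density lipoprotein, on chromosome 11 (116835751 to 116837950, minus strand), measured 721, 735 and 675 CPM, so that the libraries lay close together around a mean of 711 ± 31.4. HNF4A, the nuclear receptor that governs many hepatocyte genes, on chromosome 20 (44355700 to 44434596, plus strand), measured 283, 275 and 203 CPM, with replicate 3 the lowest and a mean of 254 ± 43.7, or 279 without it. ALB and AFP transcripts have a GC content of 41.3% and 38.8%, those of HNF4A and APOA1 of 52.8% and 63.6%.

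KRT8 and KRT18, the keratins of hepatocytes and other simple epithelia, measured 1829.6 ± 305 and 566 ± 25.8 CPM. Markers of other liver cells were mostly near 0. Of the endothelial markers 4 of 5 measured were silent and the fifth, LYVE1, stood at 0.469 CPM. Of 10 stellate and fibroblast markers 7 were silent, COL1A1 and COL1A2 included, and the contractile actin ACTA2 stood at 36.4 ± 2.42 CPM. The leukocyte markers CD163 and CD3E had no count, and PTPRC, the common leukocyte antigen, had 1 count in the 3 libraries together. LYZ, the lysozyme gene listed among the same markers, nevertheless measured 889, 919 and 1020.1 CPM, and CD68, a lysosomal protein, 46.8, 55.1 and 40.9. The bile duct set was divided, since SPP1, KRT19 and SOX9 measured 655, 233 and 153 CPM while KRT7 and AQP1 had no count. Of 6 erythroid markers measured, HBA1 stood at 2.33 CPM and the other 5 were silent.

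The stretches of 150 bases before the transcription start of secreted protein genes are shown because 33.3% of such genes (19 of 57 with a promoter entry) held GTTAAT or its reverse complement ATTAAC within 250 bases before a start, against 7.5% of all genes (2047 of 27305). These letters, long described in the promoters of liver genes, are rich in A and T. Both strands were searched, and a gene with several starts counted if any of them held a match. The sequences are RefSeq's (GRCh38.p14), written 5′ to 3′ on the strand of the gene in lower case with the match in capitals, for ALB at chr4:73404137-73404286 (plus strand), AFP at chr4:73436071-73436220 (plus), the fibrinogen gene FGA at chr4:154590743-154590892 (minus), the start of SERPINA1 that holds a match at chr14:94388603-94388752 (minus), and the start of the plasminogen gene PLG that holds a match, at chr6:160702094-160702243 (plus). PLG is a secreted gene of low level in these cells.
ALB: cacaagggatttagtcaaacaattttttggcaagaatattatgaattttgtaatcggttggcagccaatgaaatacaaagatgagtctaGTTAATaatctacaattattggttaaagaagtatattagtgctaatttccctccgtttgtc
AFP: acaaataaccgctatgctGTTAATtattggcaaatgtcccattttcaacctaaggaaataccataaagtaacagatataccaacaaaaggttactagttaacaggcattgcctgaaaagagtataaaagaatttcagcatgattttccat
FGA: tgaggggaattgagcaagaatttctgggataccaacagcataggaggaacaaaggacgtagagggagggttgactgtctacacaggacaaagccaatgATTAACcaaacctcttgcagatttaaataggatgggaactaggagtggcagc
SERPINA1: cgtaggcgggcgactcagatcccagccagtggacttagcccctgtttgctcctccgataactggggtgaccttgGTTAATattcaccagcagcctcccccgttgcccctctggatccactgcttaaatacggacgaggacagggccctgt
PLG: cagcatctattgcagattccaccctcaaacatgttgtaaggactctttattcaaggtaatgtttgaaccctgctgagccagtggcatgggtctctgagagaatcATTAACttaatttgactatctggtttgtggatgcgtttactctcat
The match began 61 bases before the start in ALB, 132 in AFP, 52 in FGA, 76 in SERPINA1 and 46 in PLG. The share with a match did not separate the secreted genes by level in these cells, at 33.3% of the 39 with 10 CPM or more and 33.3% of the 18 below. PLG, with a mean of only 0.415 ± 0.0387 CPM, had a match nearer to 1 of its 2 starts than ALB to its own, and none before the other start. Among other lists the letters were found in 7 of 30 cytochrome P450 and conjugation genes, in 3 of 22 liver transcription factors, in 1 of 25 proliferation genes and in none of 13 reference and 17 sterol genes. A match describes the letters of the window and is no evidence of binding.

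Transcripts of secreted liver proteins made up 5.62%, 5.63% and 6.09% of all counts, a mean of 5.78% ± 0.270. They came from 4 lists with 81 measured genes, of which 55 had at least 10 CPM, 9 were silent and 3 of these had no count. Of the 10 nuclear genes that took the most counts, 6 belonged to these lists (ALB, APOB, SERPINA1, A2M, AFP and TF), beside the elongation factor gene EEF1A1, the fibronectin gene FN1, the ferritin light chain gene FTL and GAPDH. By per-length level the first 10 nuclear genes with a symbol were FTL at 16154 ± 434, ALB at 10863 ± 1232, EEF1A1, AFP at 4859 ± 344, APOA2, SERPINA1, GAPDH, the pseudogene EEF1A1P5, APOH and AHSG, again with 6 from the secreted lists. A gene without a symbol lay at rank 10 and AHSG at 11. The order depends on the length used. With the principal transcript EEF1A1 (14186) stood above ALB (10509) and FTL (10460), and SERPINA1 (6583) and APOA2 (5280) stood above AFP (4130). Reads of EEF1A1 and EEF1A1P5 are hard to tell apart, so the split between them is uncertain.

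Among 19 carrier proteins of plasma, 15 had at least 10 CPM and the median was 311 CPM. A2M, a broad protease inhibitor, measured 5516, 5165 and 5551 CPM and TF, the iron carrier transferrin, 4031, 4201 and 4062. Both lay within narrow limits in all 3 libraries, with means of 5411 ± 214 and 4098 ± 90.5. AHSG, the mineral-binding fetuin-A, measured 2238, 2298 and 1749 CPM and was lowest in replicate 3, with a mean of 2268 over the other two. By per-length level albumin led the list, followed by AFP, AHSG at 2671 ± 578 and A2M at 2524 ± 236. The per-length level of TF was 466 ± 41.3, for which an annotated exon length of 26199 bases was used. The thyroid hormone carrier TTR stood at 92.1 ± 6.93 CPM. At the bottom of the list were GC, the vitamin D carrier, with 1, 2 and 2 counts, AFM at 0.45 ± 0.0753 CPM, and HPX, the haem carrier hemopexin, at 0.605 ± 0.233 CPM. The haptoglobin gene HP reached only 10.8, 12 and 12.3 CPM. ORM1 and ORM2, orosomucoid genes of near-identical sequence, measured 368 and 131 CPM, and their split is uncertain.

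All but 1 of 13 measured apolipoprotein genes had at least 10 CPM. APOB, the structural protein of very-low-density lipoprotein, measured 8273, 7449 and 9098 CPM, lowest in replicate 2, with a mean of 8273 ± 824. APOH, which binds phospholipid, measured 1390.5, 1502 and 1891 CPM, and APOA2, of high-density lipoprotein, 1142, 1279 and 1501, both highest in replicate 3. APOE, a ligand of lipoprotein receptors, measured 1172, 1220.0 and 1016 CPM. Per length, APOA2 (4088 ± 195) and APOH (3532 ± 265) stood above APOB (1656 ± 148), APOE (1551 ± 259.9) and APOA1 (1489 ± 185). With merged exons the last 3 were not separated beyond their spread. With the principal transcript their mean levels were 1126, 1818 and 1458. Lower in the list, APOA4 and APOF stood at 18.9 ± 1.56 and 12.2 ± 0.625 CPM. LPA, the gene of apolipoprotein(a), had no count in any library.

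The clotting and fibrinolysis genes were nearly all present, with 15 of 21 at 10 CPM or more, none silent and a median of 66.2 CPM. F2, the prothrombin gene, measured 365, 366 and 263 CPM and SERPINF2, the plasmin inhibitor, 312, 333 and 254, both lowest in replicate 3. Over replicates 1 and 2 their means were 365 and 323. The 3 chains of fibrinogen were unequal, with FGA at 227, 259.9 and 291 and FGG at 225, 239 and 297 CPM but FGB at 48.8, 52.6 and 53.7. Per length the difference remained, at 194 ± 7.43 for FGA, 208 ± 12.8 for FGG and 56.7 ± 2.71 for FGB, so FGB lay below the other chains in every library. F5, the cofactor of prothrombin activation, stood at 263 ± 27.9 CPM. The 4 lowest genes of the list were far below these. PLG had 13, 15 and 12 counts. F13B, the carrier subunit of factor XIII, had 11, 12 and 8 counts, or 0.318 ± 0.0158 CPM, and KLKB1, prekallikrein, had 8, 5 and 10, or 0.252 ± 0.127 CPM. KNG1, the kininogen gene, stood at 1.79 ± 0.0838 CPM.

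Complement and acute phase genes were the most divided of the secreted lists, with 13 of 28 at 10 CPM or more and 7 silent. SERPINA1, the gene of alpha-1 antitrypsin, measured 5931, 6489 and 6981 CPM. C3, the central complement protein, measured 1815, 1811 and 1503 CPM, and ITIH2, a hyaluronan-binding inhibitor chain, 1557, 1639 and 1887. SERPINA1 and ITIH2 were highest and C3 lowest in replicate 3. FGL1, a hepatocyte-secreted relative of fibrinogen, stood at 737 ± 96.9 CPM and CFI, the complement inhibitor factor I, at 333 ± 48.7 CPM. At the other end, C9, the pore-forming complement protein, and LBP, the endotoxin carrier, had no count in any library. SERPING1, the C1 inhibitor, had 0, 1 and 1 counts. The serum amyloid genes SAA1 and SAA2, classic acute phase genes, had 0, 1 and 2 counts (SAA1) and 3, 2 and 5 counts (SAA2), whereas the constitutive SAA4 stood at 46.8 ± 8.5 CPM. SAA1 and SAA2 share sequence, as do C4A and a near-identical copy, so their splits are uncertain.

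**Figure D2:**
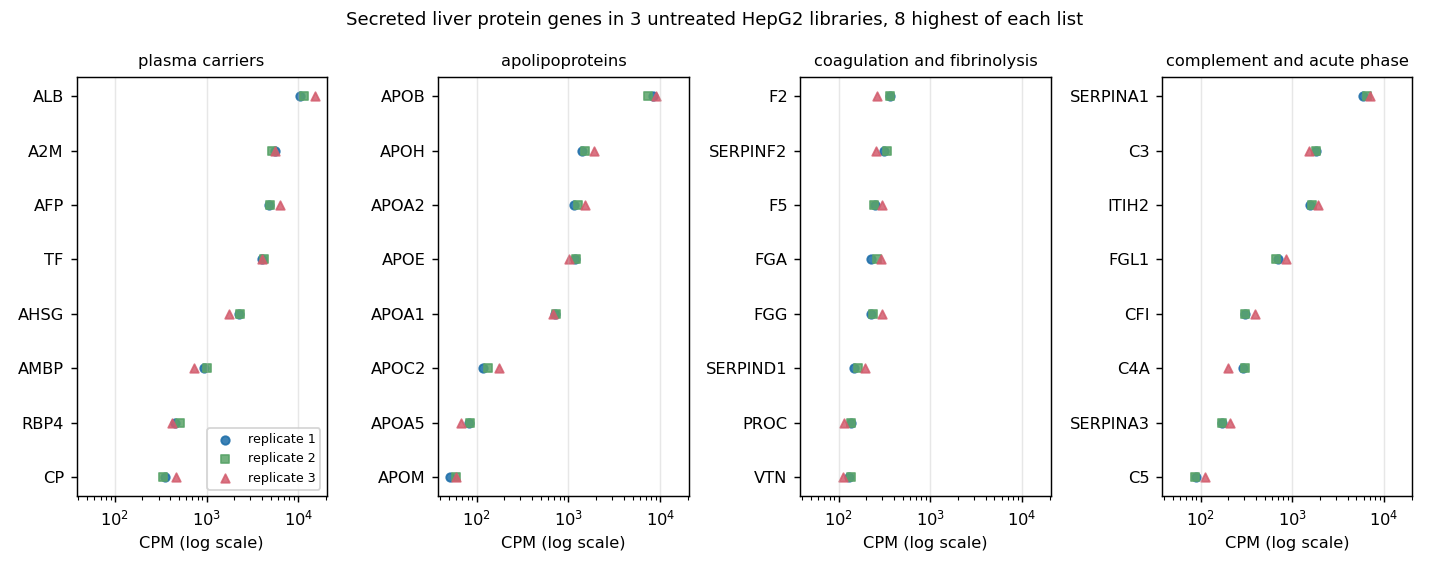
Level in CPM (log scale) of the 8 genes with the highest mean in each of the 4 lists of secreted liver proteins, with 1 point for each of the 3 untreated libraries. The libraries lie close together beside the differences between genes, and replicate 3 is the highest for ALB (15334 CPM) and AFP (6317 CPM) and the lowest for F2 (263 CPM).

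None of the 31 liver transcription factors was silent, and 26 had at least 10 CPM, with a median of 27.6 CPM. XBP1, which drives the secretory apparatus, measured 395, 438 and 484 CPM. PROX1, a regulator of early liver growth, measured 115, 111 and 133 CPM, and NR0B2, the nuclear receptor SHP that represses bile acid synthesis, 116, 118 and 87.2. Per length, XBP1 (429 ± 6.91) and NR0B2 (278 ± 64.5) stood above HNF4A (104 ± 26). The pioneer factors FOXA2, FOXA1 and FOXA3 stood at 59.7 ± 6.59, 47.3 ± 1.31 and 16.5 ± 1.37 CPM, and CEBPA, a factor of the resting hepatocyte, at 29.4 ± 3.51 CPM. The lowest in CPM were the nuclear receptors NR1I3, the xenobiotic sensor CAR, at 0.641, 0.571 and 0.69 CPM and NR5A2 at 1.53, 1.22 and 0.92 CPM, together with GATA6 at 1.19 ± 0.206 CPM. The related xenobiotic sensors NR1I2, known as PXR, and AHR stood at 17.6 ± 1.76 and 97.8 ± 13.6 CPM. Per length, NR1I3 (0.57 ± 0.0546) was below NR1I2 (9.79 ± 1.55) and AHR (35.8 ± 3.25) in all 3 libraries.

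Of 27 measured genes of fetal liver and liver carcinoma, 21 had at least 10 CPM and the median was 111 CPM. Beside AFP, GPC3, a cell-surface proteoglycan used as a marker of hepatocellular carcinoma, measured 1992, 2074 and 2310.3 CPM. PEG10, an imprinted gene derived from a retrotransposon, measured 1617, 1619 and 1676 CPM and SPP1, the gene of osteopontin, 583, 645 and 738. The imprinted PEG3 stood at 462 ± 61.8 CPM and EPCAM, an adhesion molecule of liver progenitors, at 341 ± 20.3 CPM. The imprinted growth factor gene IGF2 was the most unequal of this group among genes over 10 CPM, at 118, 92.8 and 57.6 CPM, a mean of 89.4 ± 30.2 or 105 without replicate 3. The oncofetal RNA-binding proteins IGF2BP1, IGF2BP2 and IGF2BP3 and the pluripotency regulator LIN28B stood at 185, 125, 60.6 and 96 CPM. Its paralog LIN28A had 4, 3 and 1 counts. Also silent were the imprinted noncoding RNA H19, with 1, 0 and 0 counts, and SALL4, a fetal liver transcription factor, with 1, 3 and 2. SPINK1, a trypsin inhibitor often raised in liver carcinoma, had no count in any library. TERT, the telomerase subunit, had 60, 60 and 28 counts, or 1.49 ± 0.384 CPM and 1.69 over replicates 1 and 2.

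Targets of the Wnt pathway, in which beta-catenin with TCF and LEF factors switches on genes, were mostly present, with 12 of 14 at 10 CPM or more. DKK1, a secreted Wnt inhibitor, measured 687, 750.3 and 831 CPM and GLUL, the glutamine synthetase of hepatocytes around the central vein, 464, 467 and 453. DKK1 was highest in replicate 3, and GLUL was nearly equal in all libraries. The feedback inhibitors NKD1, NOTUM, ZNRF3, RNF43 and AXIN2 stood at 155, 72.6, 56.6, 46.7 and 38.1 CPM, and LGR5, the receptor of R-spondins, at 80.4 ± 6.34 CPM. Of the pathway's own transcription factors TCF7 stood at 21.9 ± 2.17 CPM, whereas LEF1 had 1 count in the 3 libraries together.

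A set of 18 pairs put a fetal or broadly expressed gene against a gene taken here as its adult liver counterpart. The pairing was a choice, and some pairs, such as NR2F1 and HNF4A, are not forms of the same enzyme. The per-length level of the first gene was higher in all 3 libraries in 12 pairs, that of the adult gene in 5, and 1 pair overlapped. The fatty acid ligases ACSL4, of many tissues, and ACSL1, of liver, differed by a log2 ratio of 7.57 ± 0.16, the enolases ENO1 and ENO3 by 7.48 ± 0.10, and the ubiquitous and hepatic glucose phosphatases G6PC3 and G6PC1 by 6.02 ± 0.61. Among fetal and adult drug-metabolising enzymes, CYP3A7 had 317, 333 and 306 counts and CYP3A4 13, 10 and 5, a log2 ratio of 4.92 ± 0.68. The 2 genes share much of their sequence, so that small counts of either are uncertain. Pyruvate kinase PKM exceeded the liver form PKLR by 2.63 ± 0.04, and the glucose carrier SLC2A1 exceeded the liver carrier SLC2A2 by 1.67 ± 0.44. BCAT1 exceeded BCAT2, both transaminases of branched-chain amino acids, by 1.77 ± 0.32. The ± is the spread between libraries and does not cover the length used. With other lengths or none, PKM over PKLR was 3.94 to 4.09, BCAT1 over BCAT2 0.50 to 3.14, and G6PC3 over G6PC1 6.49 to 7.5.

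In 3 pairs the adult gene had at most 1 count. The glycogen synthases GYS1 and GYS2 had 4947 counts in all and 1, a per-length ratio of 3649 with an exact 95% counting interval of 654.6 to 144200. IGF2 had 8934 counts and IGF1, the growth factor of adult liver, none. The adult gene was higher for ALB over AFP, at a log2 ratio of -1.16 ± 0.08 for AFP against ALB, for HNF4A over NR2F1 (-2.55 ± 0.19) and for phosphofructokinase PFKL over PFKP (-2.01 ± 0.22). Without length correction the last 2 values were -3.31 and -2.89, and with the principal transcript PFKP against PFKL was -2.76. The methionine adenosyltransferases MAT2A and MAT1A gave -0.39 ± 0.22, but 0.17 when the longest or the principal transcript replaced the merged exons, so their order depends on the length used. Brain-type and liver-type glycogen phosphorylase, PYGB and PYGL, did not differ beyond their spread, at 0.01 ± 0.37.

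**Figure D3:**
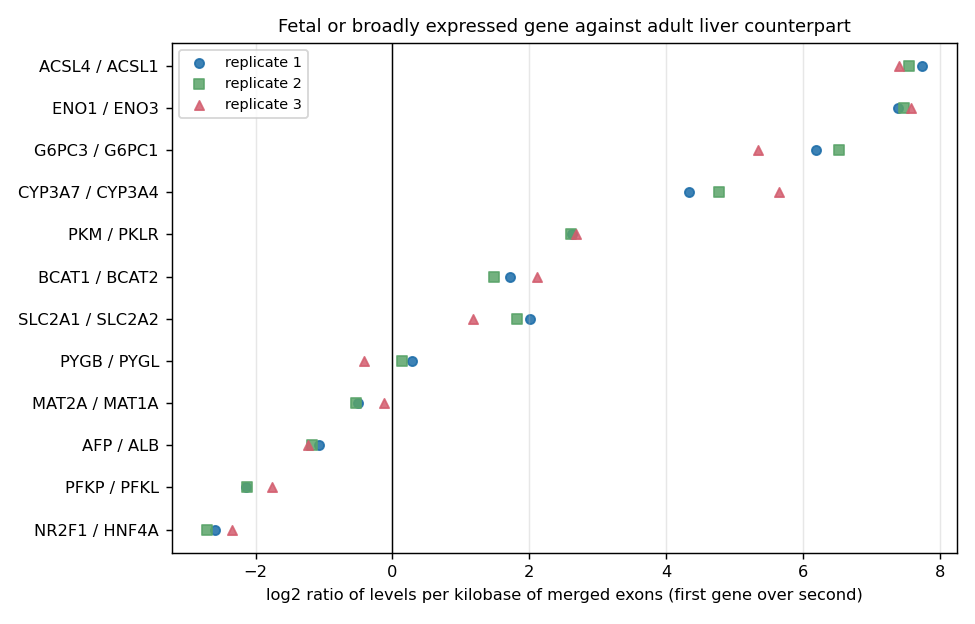
Log2 ratio of per-length levels (per kilobase of merged exons), a fetal or broadly expressed gene over the gene taken as its adult liver counterpart. There is 1 point for each untreated library, for 12 of the 18 pairs. Pairs whose adult gene had at most 1 count are among those not drawn. Points right of 0 mark a higher fetal or broad gene; the mean runs from 7.57 for ACSL4 over ACSL1 to -2.55 for NR2F1 over HNF4A.

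Drug and steroid metabolism had the largest share of silent genes among the 15 lists. Of 44 measured genes of cytochrome P450 and conjugation enzymes, 16 had at least 10 CPM and 13 were silent, 6 of them without a count, and the median was 0.562 CPM. The 6 members with the most counts were not P450 enzymes. ALDH1A1, a retinal dehydrogenase, measured 507, 538 and 636 CPM, the sulfotransferase SULT1A1 339, 364 and 301, and POR, the electron donor of all microsomal P450 enzymes, 219, 229 and 193. FMO5, a flavin monooxygenase, stood at 190.0 ± 25.8 CPM, UGT2B7, a glucuronosyltransferase, at 156 ± 20.8 CPM and ALDH2, the mitochondrial acetaldehyde dehydrogenase, at 146 ± 19.7 CPM. The P450 enzyme with the most counts was CYP27A1, a mitochondrial sterol hydroxylase, at 117 ± 10.5 CPM. SULT1A1 and UGT2B7 have close paralogs, so their counts are uncertain.

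Among the P450 enzymes of adult liver, CYP3A5 and CYP2B6 stood at 23.7 ± 3.45 and 22.1 ± 1.23 CPM, while CYP2C19 had 1 count over the 3 libraries and CYP2E1 had 3, 4 and 10. CYP1A2, the enzyme that clears most caffeine in the body, had 0, 3 and 0 counts, and its relative CYP1A1, induced through AHR, measured 2.57, 3.11 and 2.95 CPM. CYP7A1, the rate-limiting enzyme of bile acid synthesis, had 2, 1 and 3 counts. No count at all was found for ADH1B, ADH1C, NNMT, NAT2, CYP4A11 and CYP7B1, the first 2 of which are alcohol dehydrogenases and NAT2 the acetyltransferase of polymorphic drug acetylation. For these 6 genes a level under 0.115 CPM was not detectable in the shallowest library.

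Amino acid breakdown was present in part. Of 23 genes of the urea cycle and amino acid breakdown, 12 had at least 10 CPM and 4 were silent. HPD, of tyrosine breakdown, measured 383, 419 and 362 CPM, lowest in replicate 3. HGD, a later step of the same route, stood at 137 ± 15.2 CPM. Genes of the urea cycle were uneven. ASS1, argininosuccinate synthase, measured 220.2, 238 and 205 CPM, ASL, which splits its product, 45.9, 48 and 37.9, and CPS1, the entry enzyme, 14.5, 15.9 and 15.1. OTC, the ornithine carbamoyltransferase, had 0, 0 and 3 counts and ARG1, the hepatic arginase that releases urea, had 0, 1 and 1. TDO2, the tryptophan dioxygenase of liver, had no count.

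Glucose handling was present in 6 of 13 genes at 10 CPM or more and silent in 3. PYGL, which releases glucose from glycogen, measured 112, 120.5 and 127 CPM, the mitochondrial carboxykinase PCK2 62.9, 64.8 and 47 and PKLR 60.5, 63.8 and 48.8. PCK2 and PKLR were lowest in replicate 3. Of the enzymes of glucose production the cytosolic carboxykinase PCK1 stood at 8.19 ± 0.951 CPM, FBP1, the fructose bisphosphatase, at 0.293 ± 0.0381 CPM and G6PC1, which frees glucose from its phosphate, at 0.487 ± 0.115 CPM. FBP1 rested on 9, 13 and 7 counts and G6PC1 on 15, 15 and 16.

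Transporters and receptors of the hepatocyte surface were split, with 10 of 20 at 10 CPM or more and 5 silent. ABCC2, which exports conjugates into bile, measured 1258, 1149 and 1280.1 CPM, close together in all libraries. The asialoglycoprotein receptor subunit ASGR1 measured 358, 369 and 286 CPM and its partner ASGR2 325, 353 and 261, both lowest in replicate 3. SCARB1, the receptor of high-density lipoprotein, stood at 299 ± 53 CPM, or 329 over replicates 1 and 2. Among uptake carriers SLCO2B1, for organic anions, stood at 46.1 ± 8.05 CPM, or 50.7 over replicates 1 and 2, but 3 others were silent. SLC10A1, the sodium-dependent bile acid carrier NTCP, had 1, 5 and 1 counts, SLCO1B3 had 4, 4 and 0, and SLCO1B1 had none. ABCB11, the bile salt export pump, had 0, 2 and 1 counts and the glycerol channel AQP9 none.

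**Figure D4:**
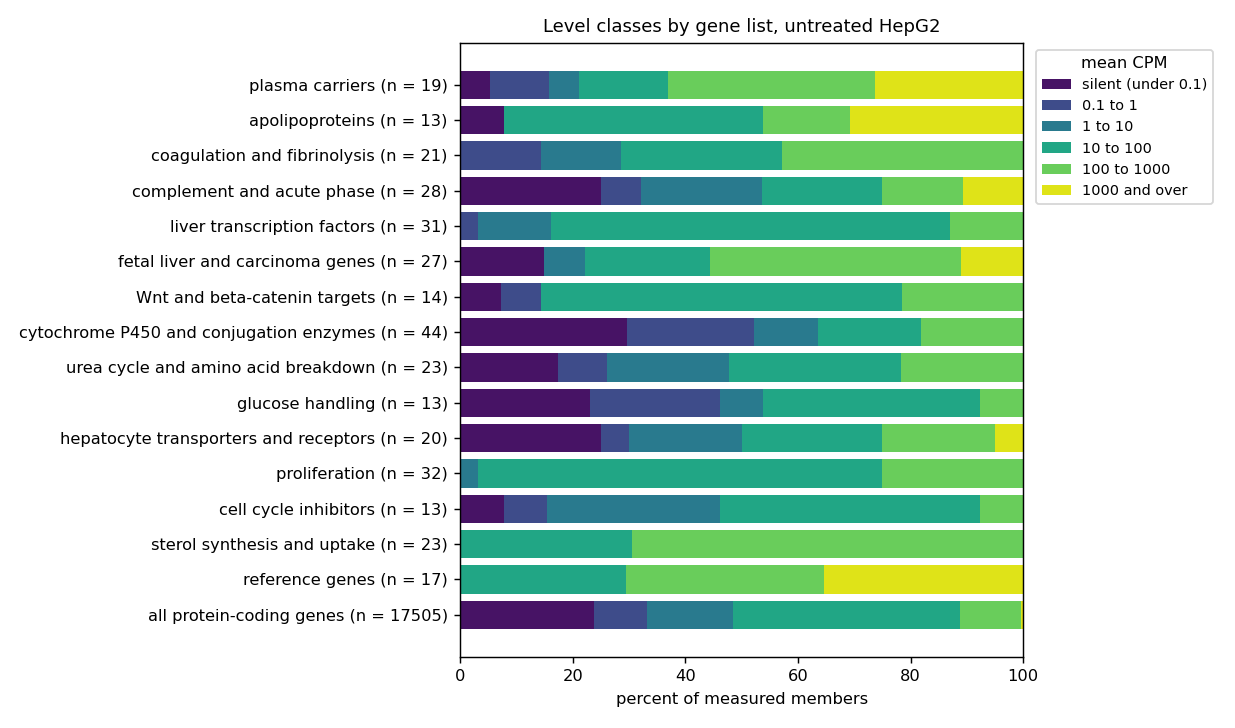
Percent of measured genes of each list by class of mean level in the 3 untreated libraries, from silent (under 0.1 CPM) to 1000 CPM and over, beside all protein-coding genes. Silent genes make up 29.5% of the cytochrome P450 and conjugation list and 25% of the transporter list, against 23.7% of all protein-coding genes and none of the proliferation and sterol lists.

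Genes of the cell cycle were present throughout. Of 32 proliferation genes 31 had at least 10 CPM, none was silent, and the median was 53.1 CPM. MCM3, of the replicative helicase, measured 230.0, 233 and 232 CPM and lay within narrow limits in all libraries. MKI67, the gene of the proliferation antigen Ki-67, measured 227, 213 and 235 CPM, and PCNA, the sliding clamp of DNA replication, 198, 178 and 205. The mitotic kinase AURKA stood at 181 ± 22.3 CPM and the topoisomerase TOP2A at 145 ± 21 CPM. Within the MCM helicase per-length levels were unequal, from 189 ± 16.1 for MCM3 to 12.4 ± 0.48 for MCM6. Of the E-type cyclins CCNE1 stood at 22.2 ± 1.01 CPM and CCNE2 at 1.81 ± 0.575 CPM, the only gene of this list below 10 CPM. In bulk RNA fewer cells in cycle and less RNA per cell cannot be told apart.

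Cell cycle inhibitors were measured beside them, and 7 of 13 had at least 10 CPM. CDKN1A, the inhibitor p21, measured 127, 137 and 110.4 CPM, and RB1, the retinoblastoma protein, 59.3, 61 and 74.4. GADD45A, a stress-induced gene, stood at 55.1 ± 1.71 CPM and CDKN1B, the inhibitor p27, at 52.6 ± 2.75 CPM. CDKN2B and the imprinted CDKN1C had the fewest counts, at 0.739 ± 0.0584 CPM and with 2, 1 and 1 counts.

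All 23 measured genes of sterol synthesis and uptake had at least 10 CPM, with a median of 249.6 CPM. FDFT1, the squalene synthase, measured 487, 538 and 542 CPM, FDPS, which makes farnesyl diphosphate, 439, 491 and 532, and SQLE, the squalene epoxidase, 299, 296 and 322. All 3 genes were highest in replicate 3. The fewest counts belonged to PMVK, the phosphomevalonate kinase, at 11.4 ± 1.55 CPM and TM7SF2, a sterol reductase, at 42.3 ± 4.57 CPM. All groups of the series were without serum, so the part of serum in these levels was not tested.

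Over the 15 lists together, 234 of 336 measured genes had at least 10 CPM and 40 were silent, a median of 46.0 CPM. Among all 17505 protein-coding genes 51.6% had at least 10 CPM and 23.7% were silent, with a median of 11.4 CPM. A total of 13487 features had at least 1 CPM in all 3 libraries, of which 11571 were protein-coding and 603 were unannotated loci. The 100 nuclear features with the most counts held 18.8% ± 0.198 of all counts, and the mitochondrial genome held 12.4% ± 1.67.

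The coefficient of variation (CV) over the 3 libraries had a median of 11.7% among 13945 features with at least 1 CPM, against 3.68% for read counting alone. It was 14.8% between 1 and 10 CPM and 9.76% at 1000 CPM and over, where counting gives 0.428%. The common biological CV by edgeR was 13.8% over the 3 libraries, 6.96% between replicates 1 and 2, and 16.7% and 15.7% between these and replicate 3. In the groups at 0.01 and 0.1 µM it was 9.71% and 7.42%, and in the other dose groups it ran from 6.18% at 10 µM to 20.7% at 1000 µM, with 16.5% at 1 µM and 16.9% at 100 µM. Without replicate 3 the median CV of the untreated libraries was 4.8%.

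The named genes with the largest CV did not belong to the lists. C5orf24 measured 3.73, 5.4 and 32.7 CPM and PWP2, of ribosome assembly, 0.183, 7.71 and 16.9, each with its highest value in replicate 3. RPL21P75, a ribosomal pseudogene, measured 12.1, 4.59 and 0.881 CPM, EIF3CL, a copy of a translation initiation gene, 287, 239 and 32.4, and SLX1B, a nuclease subunit, 9.53, 5.4 and 1.42, all lowest in replicate 3. The mitochondrial MT-ATP8 measured 213, 302 and 822 CPM. Summed with its near-identical partner EIF3C, EIF3CL had a CV of 8.69% in place of 72.7%, and SLX1B summed with SLX1A 11% in place of 74.4%. MT-ATP8, which overlaps MT-ATP6, had a CV of 25.8% when summed with it, in place of 73.7%. These partners were chosen after the values were seen.

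The untreated group was also set against the 6 libraries at 0.01 and 0.1 µM caffeine, the doses nearest to it, to show which baseline levels differ from those at the lowest doses. Of 17951 features, 26 passed edgeR's quasi-likelihood test at an adjusted p of 0.05 (0.145%), 22 higher (0.123%) and 4 lower (0.0223%) in untreated cells. Of the 289 list genes tested, 0 passed the edgeR test. At an unadjusted p under 0.05 there were 54 list genes and 2930 of all features. DESeq2's Wald test called 14 of the 289 and 591 of all features. The median log2 difference, untreated minus low dose, was -0.04 over the list genes and 0.00 over all features. The mitochondrial share was 10.8% to 14.2% in untreated libraries, 10.6% to 11.7% at 0.01 µM and 9.95% to 11.2% at 0.1 µM.

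ALB at 0.01 µM measured 10439, 11531 and 11131 CPM and at 0.1 µM 10363, 10649 and 11049, so that untreated replicates 2 and 3 lay above all of them and replicate 1 among them. The log2 difference was 0.20 ± 0.09 (SE), for which edgeR's quasi-likelihood test gave an adjusted p = 0.279. AFP differed by 0.11 ± 0.08 (SE), APOA1 by -0.16 ± 0.16 (SE) and HNF4A by -0.11 ± 0.08 (SE), with adjusted p-values of 0.514, 0.633 and 0.514 in the same edgeR test. None of the 4 marker differences passed the threshold.

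The features named here are those that passed with the largest differences among genes that carry a symbol and average 5 CPM or more. Outside that rule, an unannotated locus that passed lay further down, at 53.2, 61.8 and 61.4 CPM in untreated cells against 75.9 to 104 CPM in the low-dose libraries. The pseudogene NAMPTP1, also left out by the rule, lay further up at 1.04 ± 0.19 (SE) (edgeR adjusted p = 0.0414). It measured 5.07, 5.09 and 5.06 CPM in untreated cells but at most 3.29 CPM in the low-dose libraries. The mean used in the rule was thus not that of untreated cells alone, by which NAMPTP1 would have been named. These 2 were chosen after their values were seen. CETN3, a centrin of the centrosome, measured 14.2, 15.8 and 17.6 CPM in untreated cells, 10.5, 10.2 and 10.3 at 0.01 µM and 8.72, 10.7 and 10.7 at 0.1 µM, so the groups did not overlap. All untreated libraries lay above all 6 others for 7.14% of the features tested and below them for 4.67%. The log2 difference was 0.64 ± 0.12 (SE) (edgeR adjusted p = 0.0417). ACTR6, an actin-related chromatin protein, and ZGRF1, a DNA repair helicase, were higher by 0.58 ± 0.11 (SE) and 0.57 ± 0.09 (SE) (edgeR adjusted p = 0.0497 and 0.0222). DMAC1, of mitochondrial complex I assembly, and TAGLN, the actin-binding transgelin, were lower at -0.47 ± 0.09 (SE) and -0.42 ± 0.08 (SE) (edgeR adjusted p = 0.0469 and 0.0414). Only 1 feature passed without untreated replicate 3, none without untreated replicate 1, and 62 without untreated replicate 2. At an unadjusted edgeR p under 0.05 there were 1150, 3201 and 3604 features in these fits, against 2930 with all libraries. With any 1 of the 6 low-dose libraries left out, 0 or 1 feature passed, beside 2294 to 2964 at an unadjusted p under 0.05. The called features that were higher in untreated cells had a median GC content of 37.8%, against 49.8% for all. The correlation of the log2 difference with GC content over 16075 genes was -0.32, and -0.14 without untreated replicate 3.

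Across the other doses the 4 marker genes are given as levels only. The part of caffeine in their differences from untreated cells was not tested. The mitochondrial share ran from 4.72% to 12.8% over the 12 libraries at 1 µM and above, against 10.8% to 14.2% in untreated libraries. Dose was not separated from such differences between libraries. ALB stood at 12463 ± 2554 CPM in untreated cells and, in order of dose from 1 to 1000 µM, at 11443 ± 1046, 12022 ± 166, 8554 ± 192 and 6330.4 ± 221 CPM. AFP stood at 5188 ± 351, 4272 ± 201, 3521 ± 213 and 2036 ± 149.6 CPM at these 4 doses. For both genes all libraries at 100 and 1000 µM lay below all untreated ones, as did those of AFP at 10 µM. In the same comparisons every untreated library lay above every other for 8.85%, 19.3%, 25.3% and 28.5% of all 17951 features, in order of dose from 1 to 1000 µM. ALB ran from 6107 to 6549 CPM at 1000 µM, where the mitochondrial share ran from 4.85% to 11.8%, and from 11859 to 12190.0 CPM at 10 µM, where it was 4.82% to 4.95%. APOA1 stood at 711 ± 31.4 CPM in untreated cells and at 1027 ± 314, 1199 ± 66.6, 996 ± 260.1 and 614 ± 74.1 CPM at these doses. Its untreated libraries lay below all libraries at 1, 10 and 100 µM, as for 8.42%, 20.5% and 25.8% of all features, and above all libraries at 1000 µM, where 28.1% of all features lay the other way. HNF4A stood between 246 ± 3.56 and 284 ± 14.7 CPM, and its libraries overlapped the untreated ones at each of these doses. At 1 and 10 µM the overlap rested on untreated replicate 3 (203 CPM). Untreated replicates 1 and 2 (283 and 275 CPM) lay above all libraries at 1 µM (241 to 266 CPM) and 10 µM (242 to 250 CPM).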

How the data were processed

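The deposited table holds raw read counts per feature, whole numbers that the authors did not normalize, for 37637 features. The submitters' processing notes name HISAT2, DESeq2 and GRCh38; the counting tool, annotation release and use of strand are not given in the sources used here. The table has 21 more columns with values of single samples, which went unused here. Of the features, 32937 carry Ensembl identifiers, 24852 matched a symbol and 4700 are unannotated loci. Exon lengths and GC content came from GENCODE 29 (GRCh38), which may differ from the authors' annotation, so overlapping, antisense and near-identical genes have uncertain counts.

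CPM values used TMM factors over all 21 libraries. The low-dose comparison used edgeR 4.0.16 (R 4.3.3) with filterByExpr, the robust quasi-likelihood F-test, 2-sided, in 1 fit over 21 libraries, and Benjamini-Hochberg adjustment over 17951 features at 0.05. It was tested on simulated data. DESeq2 1.42.0, other filters and lengths, and each library left out were alternatives.

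The members and lists were chosen with earlier results of these data known. Of 343 list genes, 7 were not analysed here. Values are given for the 3 to 6 genes with the highest and the 2 to 4 with the lowest mean of each list, the 4 markers, the 10 features first by CPM and by length, the 6 with the largest CV, and up to 3 called features in each direction, the last 2 kinds only among genes that carry a symbol and average 5 CPM or more. Values of other list genes were added after they were seen, and some list genes and pairs are not reported here, though they count in the list totals. Among the 9 libraries of the untreated, 0.01 and 0.1 µM groups, same-numbered deviations correlated at -0.109 to 0.116, so the numbers were not taken as pairs; the other groups were not checked.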

Additional observations from a re-analysis of the deposited data

How the results depend on the processing

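The levels rest on 3 cultures, of which replicate 3 stands apart by GC content, and a count of 0 bounds a level only at about 0.1 CPM. As a percent of nuclear counts the secreted lists held 6.61%. The MAT2A to MAT1A log2 ratio turned to 0.172 with the longest transcript and to 0.172 with the principal transcript, the latter chosen after seeing the data; the cause was the length used. Other length choices moved 27 pair values; they turned no other called pair, and took PYGB over PYGL, which overlapped, from 0.01 to -0.53.

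Leaving out 1 untreated library gave 13604 to 13673 features at 1 CPM or more, 12 to 13 pairs with the fetal or broad gene higher, a list median of 45.3 to 48.3 CPM, 234 list genes at 10 CPM or more, 40 to 42 silent, a secreted share of 5.63% to 5.86%, and a median CV of 4.8% to 12.7%. For the low-dose comparison 4 features passed with DESeq2 size factors, 591 with DESeq2's Wald test, 10 without a filter, 168 with a mean of at least 5 CPM, 174 in a fit of the 9 libraries alone and 0 to 62 with 1 library left out, against 26. With the replicate number as a block 1 feature passed; since the numbers do not pair the samples of the 3 groups compared, this is no paired analysis. The cause of these changes was not tested.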

Other observations

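The 17 reference genes, used in many laboratories to scale expression, differed in spread between the untreated libraries. RPLP0, a ribosomal stalk protein, measured 2395, 2452 and 2242 CPM (CV 4.6%) and EEF1A1, a translation elongation factor, 16148, 16784 and 18089 (CV 5.82%). ACTB, the cytoskeletal actin, measured 2983, 2997 and 1926 CPM (CV 23.3%), B2M, the light chain of class I antigens, 191, 191 and 307 (CV 29.2%), and SDHA, of the respiratory chain, 60.4, 40.4 and 27.5 (CV 38.7%). Replicate 3 was the outer library for ACTB and B2M, low in the first and high in the second. GAPDH measured 3918, 4246 and 3385 CPM, lowest in replicate 3.

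By list, the median log2 difference of replicate 3 from the mean of replicates 1 and 2 ran from -0.30 for transporters and receptors and -0.27 for glucose handling to 0.14 for fetal and carcinoma genes and 0.21 for complement and acute phase genes, among members with a mean of at least 5 CPM.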
